A study of Mus musculus with 14 samples.

Results

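The interferon regulatory factors are a family of transcription factors, and 8 of its genes, Irf1, Irf2, Irf3, Irf4, Irf5, Irf7, Irf8 and Irf9, were followed across every library of a study of TRAIL (the product of Tnfsf10, which signals through a death receptor) in mouse CD4 T cells. The members were taken by gene symbol: all 8 were found among the 20875 genes listed for the culture experiment and among the 18855 listed for the mouse experiment. No measured value entered the choice. Levels are given in TPM, a transcript level scaled to gene length and library size.

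All family members bind DNA through a shared amino-terminal domain that recognises repeats of GAAA, the core of the interferon-stimulated response element. Irf3, Irf5 and Irf7 are held inactive until sensors of nucleic acids lead to their phosphorylation, after which they turn on interferon genes. Irf9 joins STAT proteins downstream of the type I interferon receptor, Irf1 is an activator and Irf2 largely a repressor at overlapping sites, and Irf4 and Irf8 act with partners such as Batf, Jun and PU.1 family proteins. In T cells, Irf4 is induced by the antigen receptor and is needed for clonal expansion and effector differentiation.

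The culture experiment held 8 libraries of primary CD4 T cells that the labels assign to lymph node of wild type C57BL/6 mice: 2 in medium alone, 3 with antibodies to CD3 and CD28, which stand in for antigen and costimulation, and 3 with the same antibodies and TRAIL. The labelled doses were 1 mg/ml of antibodies and 10 ug/ml of TRAIL, and no duration is given in the sources used here. The mouse experiment held 6 libraries of CD4 T cells that the labels assign to spleen on the C57BL/6 strain: 1 of TRAIL-R f/f mice given vehicle, 3 of TRAIL-R f/f mice given TRAIL and 2 of Lck Cre TRAIL-R f/f mice given TRAIL. The floxed receptor allele was thus shared by all mouse groups as labelled, and the Lck promoter drives Cre in T cells. The bracketed name of the vehicle library reads B6_spleen, so its genotype may differ, and that of the first Lck Cre library carries no TRAIL tag. Ages, in vivo doses and the number of animals per library are not given, and nothing in the labels tells separate cultures or animals from repeat libraries, so the p-values cover the library spread alone.

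The libraries held 23.0 to 32.3 M recovered reads in culture and 19.2 to 56.9 M in the mouse experiment, and 1066 to 57392 reads stood behind a member's value in culture and 649 to 11344 in the mouse libraries. Cd3e, Cd3g, Cd4, Trac and Lck, the T cell markers, summed to 2009 to 2631 TPM in culture and 303 to 1211 TPM in the mouse libraries. Markers of other cells were present in both experiments. In culture, 6 B cell markers summed to 1252 to 1268 TPM in medium, 191 to 236 TPM with CD3/CD28 and 1174 to 1201 TPM with CD3/CD28 and TRAIL, and 7 macrophage and monocyte markers to 1135 to 1223, 30.4 to 34.9 and 368 to 444 TPM. In the mouse libraries, 5 neutrophil markers summed to 68683 to 91299 TPM in the 3 libraries of sequencing lane 2 and to 15988 to 24284 TPM in the 3 of lane 4, above the T cell markers in all 6, which goes against a pure CD4 T cell label. Tnfrsf10b, which encodes the mouse TRAIL receptor, was at 1.82 TPM in the vehicle library, at 1.64, 1.46 and 2.31 TPM in the floxed TRAIL libraries and at 2.04 and 3.498 TPM in the libraries labelled Lck Cre. It was thus not lower in the latter; the part of the gene that is floxed is not given, so the gene's total level may not show a deletion.

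All 8 genes were detected in each of the 14 libraries. In medium, the order of the mean levels per length was Irf1, Irf2, Irf8, Irf3, Irf9, Irf5, Irf7 and Irf4, from 599.7 ± 14.1 TPM for Irf1 to 45.4 ± 1.06 TPM for Irf4 (SD, n = 2). Of the neighbours in that order, Irf8 and Irf3 overlapped between libraries (184 and 195 against 182 and 188 TPM), as did Irf5 and Irf7 (72.8 and 73.2 against 66.3 and 75.1 TPM). With CD3/CD28, Irf4 stood highest at 689.6 ± 119 TPM and Irf5 lowest at 42.0 ± 1.62 TPM (SD, n = 3). With CD3/CD28 and TRAIL, Irf1 stood highest at 1586 ± 14.5 TPM and Irf4 lowest at 56.1 ± 0.692 TPM (SD, n = 3). By group means, Irf4 was thus lowest in medium, highest with CD3/CD28, where Irf1 overlapped with it at 557 to 640.3 against 554 to 774 TPM, and lowest again with TRAIL.

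**Figure D1:**
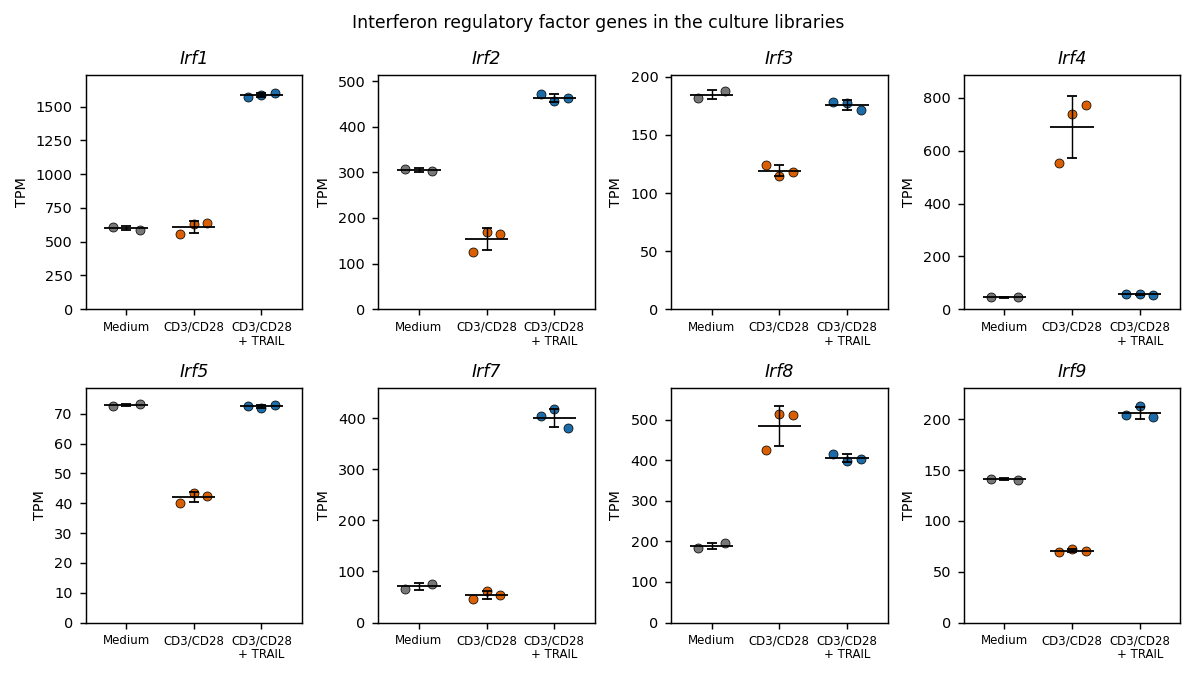
Level of each interferon regulatory factor gene in TPM (vertical axes, linear, starting at 0) in the 2 medium, 3 CD3/CD28 and 3 CD3/CD28 with TRAIL libraries; points are libraries, horizontal lines means and bars 1 SD. Irf4 is high only in the CD3/CD28 libraries, between 554 and 774 TPM, and Irf7 only in those with TRAIL, between 381 and 417 TPM.

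Promoter windows are shown for Irf1, Irf2 and Irf8, which hold letters of an interferon-linked element, and for Irf7, the member that rose farthest with TRAIL. RefSeq windows on GRCm38.p6, 250 bases before to 50 bases after a start site, were found for 8 of the 8 genes, 11 windows in all. They were searched on both strands for GAAANNGAAA, the interferon-stimulated response element, and TTCNNNGAA, the gamma-activated site bound by STAT dimers, which reads the same on both strands. Capitals mark these letters. The windows shown, on GRCm38.p6, are chr11:53769764-53770063 on the plus strand for Irf1, chr8:46739495-46739794 on the plus strand for Irf2, chr8:120736108-120736407 on the plus strand for Irf8 and chr7:141266375-141266674 on the minus strand for Irf7.
Irf1 promoter: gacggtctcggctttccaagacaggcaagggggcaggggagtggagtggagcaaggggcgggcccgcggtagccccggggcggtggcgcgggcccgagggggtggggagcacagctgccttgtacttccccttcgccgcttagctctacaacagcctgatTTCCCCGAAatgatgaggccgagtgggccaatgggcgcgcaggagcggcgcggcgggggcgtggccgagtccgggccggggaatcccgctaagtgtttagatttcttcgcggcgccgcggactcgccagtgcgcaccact
Irf2 promoter: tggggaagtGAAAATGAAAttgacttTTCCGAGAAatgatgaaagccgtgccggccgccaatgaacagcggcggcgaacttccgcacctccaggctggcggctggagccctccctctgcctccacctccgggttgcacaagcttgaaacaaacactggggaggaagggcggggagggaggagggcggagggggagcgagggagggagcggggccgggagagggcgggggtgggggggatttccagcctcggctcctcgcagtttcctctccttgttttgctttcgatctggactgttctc
Irf8 promoter: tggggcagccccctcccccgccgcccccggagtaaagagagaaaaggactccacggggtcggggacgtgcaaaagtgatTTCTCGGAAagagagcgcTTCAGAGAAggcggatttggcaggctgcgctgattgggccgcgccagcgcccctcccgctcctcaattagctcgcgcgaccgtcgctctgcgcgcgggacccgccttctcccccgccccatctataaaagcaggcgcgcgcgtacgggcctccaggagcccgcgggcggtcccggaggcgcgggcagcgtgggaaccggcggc
Irf7 promoter: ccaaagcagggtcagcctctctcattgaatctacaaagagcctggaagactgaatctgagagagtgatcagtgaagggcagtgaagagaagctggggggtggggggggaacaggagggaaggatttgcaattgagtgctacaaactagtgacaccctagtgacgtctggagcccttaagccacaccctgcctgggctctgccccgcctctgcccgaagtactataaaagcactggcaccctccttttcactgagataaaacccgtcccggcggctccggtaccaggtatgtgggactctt

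The Irf1 window held TTCCCCGAA, whose first base lies 90 bases before the start site. The Irf2 window held both kinds of element, GAAAATGAAA beginning 241 bases and TTCCGAGAA beginning 224 bases before the start, and the 2 matches did not overlap. The Irf8 window held TTCTCGGAA and TTCAGAGAA, beginning 171 and 153 bases before the start. Irf1 and Irf8 each had a further window at another start site, chr11:53770223-53770522 and chr8:120738389-120738688, which held neither kind of element. The Irf7 window held neither, nor did those of Irf3, Irf4, Irf5 and Irf9. Of all 32851 promoter windows, 3.44% held GAAANNGAAA and 8.30% held TTCNNNGAA, so a match is a description of the window and says nothing of binding. GGGANTTTCC, read by NF-kB, TGANTCA, read by AP-1, and the E-box CACGTG were in 0 of the 11 windows, against 0.411%, 7.81% and 7.15% of all windows, and their absence says only that these letters are not in these windows.

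The first comparison asked how T cell receptor and CD28 stimulation moved the family. Irf4 and Irf8, the lymphoid members that act with partners, rose, while Irf2, Irf3, Irf5, Irf7 and Irf9 fell. Of the 8 genes, 2 were called up and 5 down (limma on log2(TPM + 1), Benjamini-Hochberg adjusted p under 0.05), beside 76.5% of the 14035 genes tested called in either direction, 27.5% up and 49.0% down, so calls were the rule in this comparison. The median log2 fold change was -0.51 over the members and -0.32 over all genes tested. After scaling by the median of ratios, which moved the median of all genes by 0.36, 75.5% of genes were called, 39.7% up and 35.8% down, and with voom on recovered reads 76.4%, 33.3% up and 43.1% down. The libraries of the 2 groups did not overlap for 7 of the 8 members, all but Irf1, as for 84.5% of all genes tested.

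Irf4 was at 44.7 and 46.2 TPM in medium and at 554, 741 and 774 TPM with CD3/CD28. The groups lay far apart, 15.2-fold in their means, and the first CD3/CD28 library was the lowest of its group. The log2 fold change was 3.88 ± 0.131 (SE; limma, adjusted p = 1.18e-07), and 0.235% of tested genes rose more. Irf8, which directs myeloid and B cell development and is also induced in activated T cells, was at 184 and 195 TPM in medium and at 427, 514 and 511 TPM with CD3/CD28. No library overlapped, and the log2 fold change was 1.34 ± 0.0889 (SE; limma, adjusted p = 3.20e-06). In the same libraries 6 of 6 B cell markers and 7 of 7 macrophage and monocyte markers fell, as did 4 of the 5 dendritic cell markers tested, whose whole list of 7 summed to 46.5 to 48.6 TPM in medium and 11.4 to 15.3 TPM with CD3/CD28. Of the 5 T cell markers, 4 were called down too, with a median log2 fold change of -0.48, against -2.94 for the B cell markers and -3.84 for the macrophage and monocyte markers. The part of any of these cells in the value of Irf8 was not tested. In such bulk samples, fewer cells of a type and less RNA per cell cannot be told apart.

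Among the sensor-driven members, Irf3 went from 182 and 188 TPM in medium to 124, 115 and 118 TPM with CD3/CD28, a log2 fold change of -0.63 ± 0.0595 (SE; limma, adjusted p = 2.48e-05). Relative to the median gene it lay at -0.31, and after scaling the call was lost (log2 -0.24, adjusted p = 0.0504). Irf5, which serves Toll-like receptor signalling in B cells and macrophages, went from 72.8 and 73.2 TPM to 40.2, 43.4 and 42.3 TPM. Its log2 fold change was -0.78 ± 0.0602 (SE, limma, adjusted p = 7.43e-06). After scaling, Irf5 lay at -0.40 (limma, adjusted p = 4.35e-04), beside -0.41 in the authors' deposited values. The B cell and macrophage marker sums fell with it, by the values given above, and their part in the result was not tested. Irf7, the amplifier of type I interferon production, was at 66.3 and 75.1 TPM in medium and at 45.6, 61.9 and 53.5 TPM with CD3/CD28. These libraries did not overlap, but the nearest differed by little. The log2 fold change of -0.40 ± 0.123 (SE, limma, adjusted p = 0.0173) lay at -0.08 relative to the median gene. The authors' deposited log2 fold change for Irf7 was -0.01, with their adjusted p at 0.910. The call on Irf7 was lost without the second medium library (log2 -0.31, adjusted p = 0.123), after scaling (log2 -0.01, adjusted p = 0.929), with voom on recovered reads (log2 -0.20, adjusted p = 0.0797) and with only the 2 groups in the fit (adjusted p = 0.0514).

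The pair Irf1 and Irf2, activator and repressor at shared sites, came apart. Irf1 was at 609.7 and 589.7 TPM in medium and at 557, 631 and 640.3 TPM with CD3/CD28, and these libraries overlapped. Its log2 fold change of 0.02, with a 95% interval of -0.15 to 0.19, missed the threshold (limma, adjusted p = 0.807). Relative to the median gene it lay at 0.34, and it was called up after scaling (log2 0.42, adjusted p = 2.72e-04) and with voom on recovered reads (log2 0.22, adjusted p = 0.0121); the authors' deposited table gives Irf1 a log2 fold change of 0.41 with an adjusted p of 2.47e-04. Irf2 was at 308 and 303 TPM in medium and at 126, 169.6 and 166 TPM with CD3/CD28, a log2 fold change of -0.99 ± 0.119 (SE; limma, adjusted p = 1.03e-04). The ratio of Irf1 to Irf2 was accordingly 1.98 and 1.95 in medium and 4.40, 3.72 and 3.86 with CD3/CD28. Irf9, the DNA-binding part of a complex with STAT proteins, went from 142 and 140.1 TPM to 69.2, 72.2 and 70.1 TPM. It fell as far as Irf2, with a log2 fold change of -0.99 ± 0.0559 (SE, limma, adjusted p = 1.36e-06). After scaling, Irf2 and Irf9 were still called down but each lay at log2 -0.60 (limma, adjusted p = 1.43e-04 and 7.41e-05). The authors' deposited log2 fold change was -0.61 for each.

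The second comparison asked what TRAIL added to CD3/CD28. Here 6 members, Irf1, Irf2, Irf3, Irf5, Irf7 and Irf9, rose and Irf4 and Irf8 fell. The same 3 CD3/CD28 libraries enter this comparison and the first, so their directions are not independent. The 8 calls stood beside 76.7% of the 14035 genes tested called in either direction, 48.1% up and 28.6% down (limma, adjusted p under 0.05). After scaling, which moved the median of all genes by -0.28, 77.0% of genes were called, 37.1% up and 39.9% down, and with voom on recovered reads 76.9%, 41.6% up and 35.3% down. The median log2 fold change was 1.08 over the members and 0.25 over all genes tested. The libraries of the 2 groups did not overlap for 8 of the 8 members, as for 80.5% of all genes tested.

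Irf7 moved farthest upward, from 45.6, 61.9 and 53.5 TPM with CD3/CD28 to 404, 417 and 381 TPM with TRAIL added. The means differed 7.46-fold, no library overlapped, and the log2 fold change was 2.89 ± 0.110 (SE; limma, adjusted p = 1.91e-07), with 1.28% of tested genes rising more. Irf1 went from 557, 631 and 640.3 TPM to 1573, 1583 and 1602 TPM, Irf2 from 126, 169.6 and 166 TPM to 473, 455 and 463 TPM, and Irf9 from 69.2, 72.2 and 70.1 TPM to 204, 213 and 202 TPM. These 3 genes rose by a similar factor of 2.602, 3.01 and 2.93 in the means. Their log2 fold changes were 1.38 ± 0.0647 for Irf1, 1.60 ± 0.107 for Irf2 and 1.54 ± 0.050 for Irf9 (SE; limma, adjusted p = 5.22e-07, 3.55e-06 and 1.06e-07).

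Irf3 and Irf5 rose less, and ended within or just under the range of the medium libraries. Irf3 reached 179, 177 and 171 TPM (log2 fold change 0.56 ± 0.0532; limma, adjusted p = 2.71e-05) and Irf5 reached 72.8, 71.8 and 72.9 TPM (0.77 ± 0.0538; adjusted p = 4.41e-06; SE). Relative to the median gene these were 0.30 and 0.52. The B cell markers rose with them, 6 of 6, and so did 7 of 7 macrophage and monocyte markers. Of 5 T cell markers, 3 were called up and 1 down, with a median log2 fold change of 0.29. The part of these cells in the values of Irf3, Irf5 and the other members was not tested.

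Irf4 fell from 554, 741 and 774 TPM with CD3/CD28 to 56.5, 56.5 and 55.3 TPM with TRAIL added. The groups lay 12.3-fold apart, and the 3 TRAIL libraries were nearly equal. The log2 fold change was -3.58 ± 0.117 (SE; limma, adjusted p = 1.08e-07), and 0.164% of tested genes fell more. Irf8 did not follow Irf4 down to its medium level: it was at 415, 398 and 403 TPM with TRAIL against 427, 514 and 511 TPM without, and the nearest libraries of the 2 groups differed by 427 against 415 TPM. Its log2 fold change of -0.25 ± 0.0795 (SE; limma) passed at an adjusted p of 0.0200, and the call was lost without CD3/CD28 library 2 or 3 (adjusted p = 0.0663 and 0.0711) and without TRAIL library 2 or 3 (adjusted p = 0.0632 and 0.0561). After scaling it was larger, -0.57 (adjusted p = 3.16e-05). The ratio of Irf4 to Irf8, which share DNA-binding partners, was 0.242 and 0.237 in medium, 1.30, 1.44 and 1.51 with CD3/CD28, and 0.136, 0.142 and 0.137 with TRAIL.

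The third comparison set the CD3/CD28 with TRAIL libraries against medium, and shares samples with both others. Irf1, Irf2, Irf7, Irf8 and Irf9 were above their medium level, 5 of 8 called up and 0 down, where 17.2% of the 14035 genes tested were called, 7.25% up and 9.93% down (limma, adjusted p under 0.05). After scaling, 16.8% of genes were called, 9.26% up and 7.52% down, and with voom on recovered reads 19.6%, 7.28% up and 12.3% down. The median log2 fold change was 0.57 over the members and -0.06 over all genes tested. The libraries did not overlap for 7 members, all but Irf5, as for 60.5% of all genes tested.

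Irf7 was at 66.3 and 75.1 TPM in medium and 381 to 417 TPM with CD3/CD28 and TRAIL, 5.67-fold higher in the mean (log2 2.49 ± 0.123, SE; limma, adjusted p = 1.15e-05), and 0.221% of tested genes rose more. Irf1 was 2.64-fold higher (log2 1.40 ± 0.0723; adjusted p = 1.40e-05) and Irf8 2.14-fold higher (1.09 ± 0.0889; adjusted p = 1.63e-04; SE, limma). Irf9 was 1.46-fold higher, with a log2 fold change of 0.55 ± 0.0559 (SE; limma, adjusted p = 5.21e-04). Irf2 was 1.52-fold higher (0.60 ± 0.119, SE; limma, adjusted p = 0.0121), but its call was lost without the first or the second medium library (adjusted p = 0.0843 and 0.0838). Irf2 thus stood below medium with CD3/CD28 alone and above it with TRAIL added.

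Irf3, Irf4 and Irf5 did not pass. Irf4 differed by log2 0.30, with a 95% interval of -0.0040 to 0.60 (limma, adjusted p = 0.166), and it was called up after scaling (0.37, adjusted p = 0.0242), with voom on recovered reads (0.31, adjusted p = 0.0292) and with only the 2 groups in the fit (adjusted p = 0.00177); the authors' deposited table gives Irf4 0.38 with an adjusted p of 0.0309. Irf3 differed by log2 -0.07 (interval -0.21 to 0.07; adjusted p = 0.474) and Irf5 by -0.01 (interval -0.15 to 0.13; adjusted p = 0.941; limma). After scaling, these 2 values turned to 0.00 and 0.06, and neither was called.

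**Figure D2:**
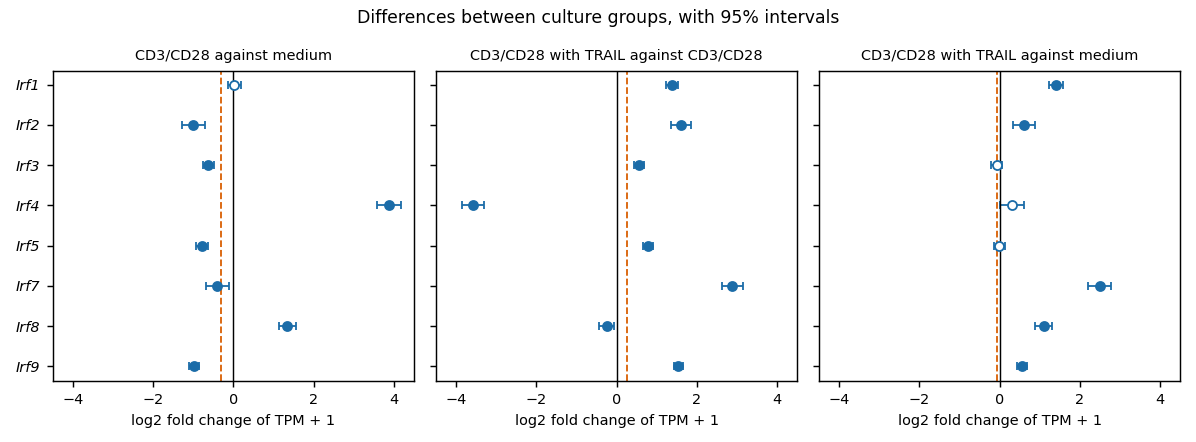
Log2 fold change of TPM + 1 (horizontal axes) of each member in the 3 culture comparisons, with 95% intervals from limma; filled points passed an adjusted p of 0.05, open points did not, and the dashed line is the median of all 14035 genes tested. Irf4 lies at 3.88 and -3.58 in the left and middle panels, and Irf7 at 2.89 and 2.49 in the middle and right panels.

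The make-up of the family's transcripts changed with its sum. The 8 genes summed to 1609 TPM in both medium libraries, to 1943, 2348 and 2376 TPM with CD3/CD28 and to 3376, 3371 and 3350 TPM with TRAIL added. Irf4 made up 2.82% of that sum in medium, 30.9% with CD3/CD28 and 1.67% with TRAIL (means of 2, 3 and 3 libraries). Irf1 made up 37.3%, 27.5% and 47.1%, and Irf7 4.39%, 2.41% and 11.9%. The ratio of Irf7 to Irf3, the inducible and the constitutive activator of interferon genes, was 0.365 and 0.400 in medium, 0.367, 0.540 and 0.452 with CD3/CD28, and 2.26, 2.35 and 2.23 with TRAIL.

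**Figure D3:**
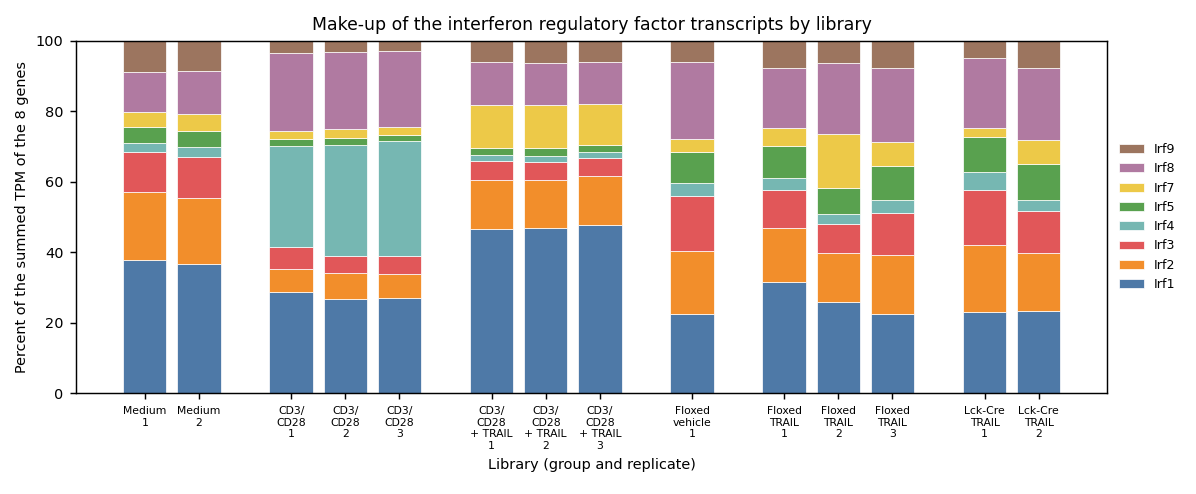
Share of each member in the summed TPM of the 8 genes (vertical axis, percent) in each of the 14 libraries, grouped by condition. Irf4 takes 30.9% on average with CD3/CD28 and 1.67% with TRAIL added, and Irf1 takes 47.1% with TRAIL added.

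The genes around the family were read from lists chosen with earlier results of these data known, so their counts are descriptions. Of 14 textbook targets of the complex that holds Irf9, 5 were called up and 3 down with CD3/CD28 against medium, 13 up and 0 down with TRAIL added to CD3/CD28, and 14 up in CD3/CD28 with TRAIL against medium (limma, adjusted p under 0.05). Of all genes tested, 27.5%, 48.1% and 7.25% were called up in these comparisons, and 49.0%, 28.6% and 9.93% down. The targets' median log2 fold changes were 0.20, 2.17 and 2.61, against -0.32, 0.25 and -0.06 over all genes tested. With TRAIL added, Ifit3, an antiviral tetratricopeptide protein, went from 16.2 ± 2.17 to 533.9 ± 15.0 TPM (log2 4.96; limma, adjusted p = 2.33e-08), and Oas2, an oligoadenylate synthetase, from 10.0 ± 3.43 to 136 ± 11.8 TPM (log2 3.67; adjusted p = 1.20e-06; SD, n = 3 each). Bst2, the virus tether tetherin, was the gene of the list not called there, at 181 ± 15.1 and 178 ± 7.20 TPM.

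Irf9 and its partners act below the interferon receptors. Of 9 genes for type I and II interferon receptors, their kinases and STATs, 1 was called up and 7 down with CD3/CD28, and 8 up and 1 down with TRAIL added. The list medians were -0.76 and 1.201 on the log2 scale, against -0.32 and 0.25 over all genes tested, of which 49.0% were called down with CD3/CD28 and 48.1% up with TRAIL added. Ifngr1, a chain of the interferon gamma receptor, went from 913 ± 3.14 TPM in medium (n = 2) to 172 ± 10.0 TPM with CD3/CD28 and 1099 ± 31.1 TPM with TRAIL (SD, n = 3 each). Stat2 went from 86.4 ± 3.35 to 77.0 ± 19.6, not called, and 323 ± 22.6 TPM. Of the 11 interferon genes listed, Ifng was in the culture table: it was at 2.13 ± 0.180 TPM in medium, 78.4 ± 18.2 TPM with CD3/CD28 and 47.8 ± 8.82 TPM with TRAIL (limma, adjusted p = 3.42e-07 and 0.00770 for the first and second comparisons).

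Of 18 tested sensors and adaptors that lead to Irf3, Irf5 and Irf7, 2 were called up and 13 down with CD3/CD28, 12 up and 2 down with TRAIL added, and 5 up and 1 down in CD3/CD28 with TRAIL against medium. Over all genes tested, 27.5% were called up and 49.0% down, 48.1% up and 28.6% down, and 7.25% up and 9.93% down in these comparisons. The list medians were -0.51, 0.58 and 0.19 on the log2 scale, against -0.32, 0.25 and -0.06 over all genes. Ifih1, the RNA sensor MDA5, was at 22.1 ± 0.905, 7.82 ± 1.56 and 61.5 ± 0.532 TPM in the 3 groups, and Tlr9, an endosomal DNA sensor prominent in B cells and dendritic cells, at 19.3 ± 1.13, 4.03 ± 1.65 and 29.5 ± 2.25 TPM. Of 14 targets of Irf1, 9 were called up and 1 down with CD3/CD28, and 10 up and 1 down with TRAIL added. In CD3/CD28 with TRAIL against medium, 12 were called up and 0 down. The list medians were 1.09, 0.60 and 1.63 on the log2 scale. Irf1 itself was not called with CD3/CD28 in the main fit, but was called up after scaling and with voom on recovered reads. The targets did not all go one way with TRAIL: Ciita, the activator of MHC class II genes, rose by log2 2.83 (limma, adjusted p = 1.40e-06) and Il12rb1, a chain of the interleukin-12 receptor, fell by 2.37 (adjusted p = 9.15e-07). Ciita was at 38.9 TPM in medium, 5.32 TPM with CD3/CD28 and 43.0 TPM with TRAIL, and Il12rb1 at 9.62, 186 and 35.0 TPM (means). Against medium, Ciita was not called (log2 0.14, limma, adjusted p = 0.665), and Il12rb1 was called up (log2 1.77, adjusted p = 1.34e-04). The part of B cells in the value of Ciita was not tested.

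Of 15 effector genes listed as needing Irf4 in T cells, 13 were called up and 1 down with CD3/CD28 (limma, adjusted p under 0.05). With TRAIL added, 1 was called up and 13 down, and in CD3/CD28 with TRAIL against medium 7 up and 0 down. Their median log2 fold changes were 1.95, -1.55 and 0.37, against -0.32, 0.25 and -0.06 over all genes tested, of which 27.5% were called up with CD3/CD28, 28.6% down with TRAIL added and 7.25% up against medium. Il21, a helper T cell cytokine, was at 0.176 ± 0.0894 TPM in medium, 433 ± 9.19 TPM with CD3/CD28 and 0.898 ± 0.0901 TPM with TRAIL. Gzmb, granzyme B, was at 13.3 ± 1.11, 1567 ± 48.2 and 61.9 ± 5.99 TPM. Both were among the 7 called up against medium, Gzmb by log2 2.14 and Il21 by 0.69 (limma, adjusted p = 6.01e-06 and 0.00138). The mean of Il21 lay below 1 TPM in medium and with TRAIL, where depth limits its value. Of 16 partners of Irf4 and Irf8, 7 were called up and 5 down in both the first and the second comparison, with median log2 fold changes of 0.21 and 0.02. Batf, the AP-1 partner of Irf4, went from 53.7 ± 0.450 to 144 ± 12.7 and 65.7 ± 2.77 TPM, and is also counted among the 15 effector genes. Spib, a PU.1 relative of B cells, went from 142 ± 1.86 to 11.8 ± 1.21 and 120 ± 3.63 TPM. The 3 Irf2 binding protein genes include Irf2bp1 and Irf2bp2, which encode corepressors of Irf2. With CD3/CD28, 3 of 3 were called down, against 49.0% of all genes tested, and with TRAIL added 3 of 3 up, against 48.1%. Against medium, 0 of 3 were called, and the list medians were -0.59, 0.65 and 0.03. Irf2bp2 changed by log2 -0.19 and 0.23 in the first and second comparisons, less than the median gene at -0.32 and 0.25. Irf2bpl led at 47.2 ± 1.12, 19.5 ± 1.85 and 40.3 ± 2.93 TPM (SD).

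The genes whose TPM followed each member most closely over the 8 culture libraries, by Pearson r on log2(TPM + 1), had r between 0.9912 and 0.9997. These 8 points share 3 groups, so r rests largely on 3 group means and is given as a description. Irf7 was followed most closely by Oasl2, Xaf1 and Ptges, Irf1 by Zbp1, Gbp11 and Gm12185, and Irf9 by Rnf14, Tnfsf10, the gene of TRAIL itself, and Podnl1. Tnfsf10 was at 20.9 and 20.0 TPM in medium, 8.15, 9.37 and 8.80 TPM with CD3/CD28 and 32.9, 33.5 and 30.8 TPM with TRAIL. Irf4 was followed by Pabpc4, Mthfd1l and Nop2, genes of translation, mitochondrial one-carbon metabolism and ribosome assembly, and Irf8 by Mlkl, Pdia3 and Asb2. Irf5 was followed by Ighv6-3, Scml4 and Ms4a4b, Irf2 by Lrch1, AC168977.1 and Slco3a1, and Irf3 by Surf1, Gm8369 and Map1lc3b.

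The mouse experiment asked whether the family differed after TRAIL between TRAIL-R f/f mice and those labelled Lck Cre. None of the 8 members was called: 0 of 14176 genes tested, 0%, passed an adjusted p of 0.05 in limma, 106 had an unadjusted p under 0.05, and 0 passed with voom on recovered reads, where 160 had an unadjusted p under 0.05. Irf7 showed the widest spread of the members. It was at 45.7, 236 and 69.1 TPM in the floxed TRAIL libraries and at 16.1 and 74.0 TPM in those labelled Lck Cre, so the groups overlapped, and its log2 difference was -1.36 with a 95% interval of -3.54 to 0.82 (limma, adjusted p = 1.00). Floxed TRAIL library 2 was the highest of the 6 libraries for 7 of the 8 members, all but Irf3. The difference for Irf7 was -0.68 without that library and -0.29 without the first Lck Cre library, and -2.42 without the second.

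Irf1 was at 272, 402 and 233 TPM in the floxed TRAIL libraries and at 148 and 252 TPM in those labelled Lck Cre, and Irf9 at 65.4, 97.9 and 80.1 against 31.6 and 84.4 TPM. The libraries overlapped for both genes, as for all 8 members, while 11.3% of all genes tested did not overlap. Their log2 differences of -0.60 and -0.62 had 95% intervals of -1.43 to 0.23 and -1.68 to 0.45 (limma, adjusted p = 1.00 for both). The differences of Irf2, Irf3, Irf4, Irf5 and Irf8 lay between -0.35 and 0.01, with intervals that together ran from -1.31 to 0.61. All 8 intervals included 0, and that of Irf7 was the widest.

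Sequencing lane moved with the members. Within lane 2, where the groups hold 1 library each, the log2 difference between Lck Cre and floxed TRAIL was -1.45 for Irf7, -0.87 for Irf1 and -1.02 for Irf9, and within lane 4, with 2 floxed libraries and 1 labelled Lck Cre, it was -0.78, -0.28 and -0.07. With lane as a term the differences were -1.07, -0.53 and -0.48, and 0 members were called (limma, adjusted p = 0.704 for each). The neutrophil marker sums, 68683 to 91299 TPM in lane 2 and 15988 to 24284 TPM in lane 4, moved with lane and not with genotype, and their part in the members' values was not tested. The summed TPM of the 14 targets of the complex that holds Irf9 was 321, 939 and 331 in the floxed TRAIL libraries, 146 and 334 in those labelled Lck Cre and 291 with vehicle, with the same library highest and the same lowest as for Irf7.

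Floxed mice given TRAIL could be set against the single vehicle library, whose spread was borrowed from the groups with replicates. Again 0 of 8 members and 0% of the 14176 genes tested were called, with 566 genes at an unadjusted p under 0.05 in limma, and 959 such genes and 0 calls with voom on recovered reads. The vehicle library was at 29.4 TPM for Irf7, 178 TPM for Irf1, 48.8 TPM for Irf9 and 69.3 TPM for Irf5, below all 3 floxed TRAIL libraries. For these 4 of 8 members the libraries did not overlap, as for 50.8% of all genes tested. The log2 differences were 1.60 for Irf7 (95% interval -1.16 to 4.35), 0.72 for Irf1 (-0.33 to 1.77) and 0.70 for Irf9 (-0.64 to 2.05), each with an adjusted p of 0.972 (limma). Within lane 2, with 1 library a group, they were 0.62, 0.60 and 0.41. Irf7 without floxed TRAIL library 2 was at 0.91. The vehicle library also stood apart in cell type markers: its 5 T cell markers summed to 1211 TPM, against 303 to 979 TPM in the floxed TRAIL libraries, and its 5 erythroid and platelet markers to 17754 TPM, against 1240.3 to 4229 TPM. Their part in these values was not tested.

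Irf4 stayed low in all 6 mouse libraries, at 28.5 to 45.9 TPM, against 44.7 and 46.2 TPM in cultured medium and 554 to 774 TPM with CD3/CD28; levels across the 2 separately normalised tables are set side by side without a test. Irf8 lay between 128 and 312 TPM, Irf2 between 122 and 213 TPM, Irf3 between 94.2 and 129 TPM and Irf5 between 63.1 and 114 TPM. The ratio of Irf4 to Irf8 was 0.171 with vehicle, 0.195, 0.147 and 0.168 with TRAIL in floxed mice, and 0.259 and 0.155 in those labelled Lck Cre. The 8 genes together summed to 795 TPM with vehicle, 860, 1547 and 1032 TPM in the floxed TRAIL libraries and 643 and 1085 TPM in those labelled Lck Cre, so the 2 Lck Cre libraries lay on both sides of the vehicle library.

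**Figure D4:**
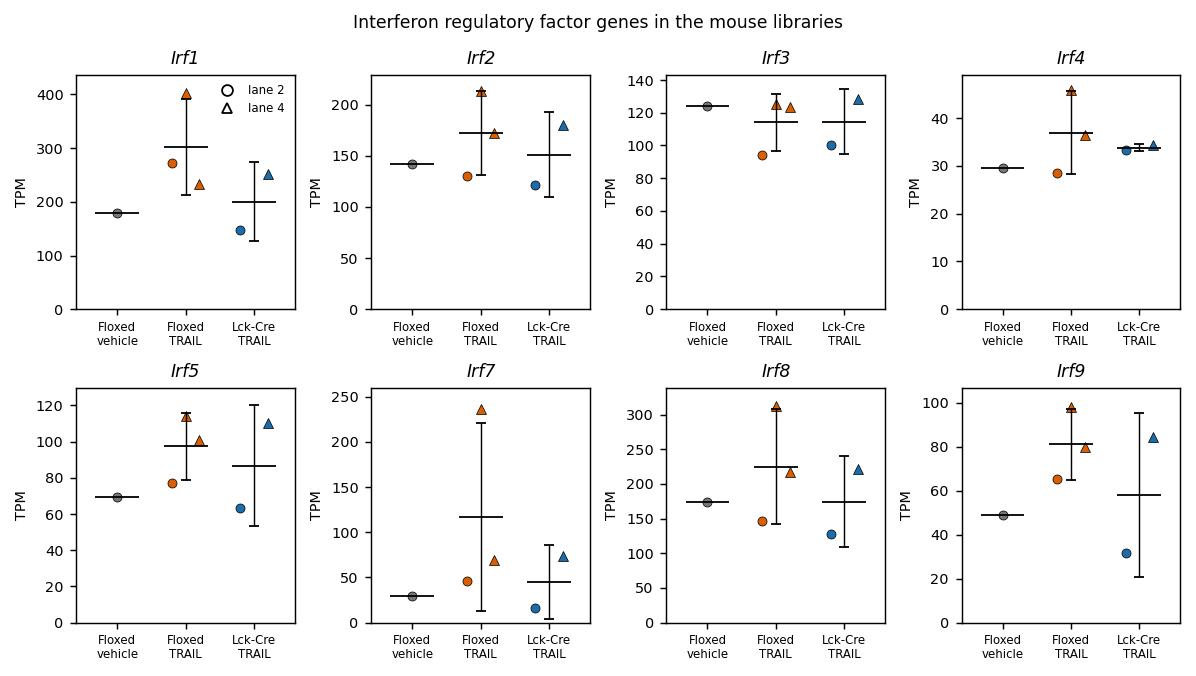
Level of each member in TPM (vertical axes, linear, starting at 0) in the vehicle, floxed TRAIL and Lck Cre TRAIL libraries; circles are lane 2, triangles lane 4, horizontal lines means and bars 1 SD where a group has more than 1 library. The floxed TRAIL and Lck Cre libraries overlap in every panel, and the Irf7 points run from 16.1 to 236 TPM.

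On GRCm38 (GENCODE M21) the members lie apart from each other, on chromosomes 11 (Irf1), 13 (Irf4), 6 (Irf5) and 14 (Irf9), on chromosome 8 (Irf2 and Irf8) and on chromosome 7 (Irf3 and Irf7). Irf1 spans chr11:53770014-53778374, Irf4 chr13:30749226-30766976, Irf7 chr7:141262706-141266481 and Irf8 chr8:120736358-120756694. Some members overlap another annotated gene, and because the strand setting of the authors' counting is not given, reads in the overlap cannot be assigned with certainty. Tnpo3 overlaps Irf5 by 1045 bases and Bcl2l12 overlaps Irf3 by 1065 bases, both on the opposite strand; Tnpo3 was at 70.3 to 96.8 TPM and Bcl2l12 at 31.1 to 38.3 TPM in culture. Gm17334, at 0.828 to 4.10 TPM in culture, overlaps Irf1 by 907 bases and Phrf1 overlaps Irf7 by 45 bases, both on the opposite strand. Rnf31 overlaps Irf9 by 123 bases on the same strand. Gm20388, annotated as protein-coding, overlaps Irf8 by 20337 bases on the same strand, which is the whole span of Irf8. Gm45479, Gm31172 and Gm45481 overlap Irf2 by 1723, 433 and 877 bases on the opposite strand. The genes that overlap Irf8 and Irf2 are not listed in either experiment, so no level can be given.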

How the data were processed

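Expression was measured by RNA sequencing in 14 libraries, grouped by their titles. Culture values were deposited as TPM, per the file headers; the mouse headers name only libraries, and TPM was inferred from column sums of 1000000. The authors' log2 fold changes and adjusted p-values for culture are deposited beside them, per the file headers. The submitters' processing notes name, without roles, DESeq2 1.26.0, StringTie 2.1.4, HISAT2 2.1.0, SAMtools 1.2, Trimmomatic 0.36 and bcl2fastq; the filter on genes before deposit is not given in the sources used here. The length column gives bases per gene, and in each library the product of TPM and length came in whole steps, and 1 step was read as 1 read; depth limits only genes near or below 1 TPM.

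From these values, log2(TPM + 1) was fitted, for genes averaging at least 1 TPM over an experiment, with limma 3.58.1 in R 4.3.3 with a variance trend, all libraries of an experiment in 1 fit (5 residual degrees of freedom in culture, 3 in the mouse experiment), two-sided, with Benjamini-Hochberg adjustment over all genes tested and a threshold of 0.05. Fold changes on this scale understate the change of low genes. Alternatives were a pseudocount of 0.1, no filter, a mean TPM of at least 5, median-of-ratios scaling, voom on recovered reads, only the groups compared, a replicate block, lane, and leaving out each library. All 8 members are named; from each pathway list up to 3 called genes with the largest change were eligible, and for each member the 3 genes with the highest r. Values of Tnfrsf10b and overlapping genes stand outside this rule. Some genes are not reported here. The members and lists were chosen with earlier results of these data known. Over-representation and enrichment tables were not used.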

Additional observations from a re-analysis of the deposited data

How the results depend on the processing

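In culture, no member changed direction while called under any alternative run, and the count of members called ran from 6 to 7 of 8 for CD3/CD28 against medium, 7 to 8 for TRAIL added to CD3/CD28 and 4 to 6 for CD3/CD28 with TRAIL against medium. Of single-gene values, 303 kept their side of the threshold, 12 lost the call and 5 gained it. The number of all genes called in CD3/CD28 with TRAIL against medium, 2411, became 5141 with only the groups compared, 1356 with the replicate block, 1549 with the block on the numbers in brackets and 902 to 1534 when 1 library was left out. Replicate numbers did not pair the culture libraries: same-numbered deviations correlated between -0.134 and 0.0777. The block on title numbers ended the call on Irf2 against medium (log2 0.57, adjusted p = 0.0515) and no other member's call. In the mouse experiment 0 members were called under each alternative. Same-numbered mouse libraries correlated at 0.696 and 0.220, but only 2 pairs exist and the numbers coincide with lane. Floxed TRAIL library 3 and Lck Cre library 2, differently numbered but both of lane 4, correlated at 0.693. With the replicate block 0 genes were called and Irf7 was at -1.55. No paired analysis was possible for floxed TRAIL against vehicle because the single vehicle library carries no number. Within lanes, 5 uncalled mouse values moved by more than 1 SE of the main fit. These were Irf4 and Irf9 between Lck Cre and floxed TRAIL, and Irf2, Irf4 and Irf8 against vehicle. The 2 medium libraries, the single vehicle library and lane limit precision.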
